A study of Mus musculus with 12 samples.

Results

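Of the 42452 putative noncoding transcripts counted in mouse kidney, 1662 have as their best database match a cDNA entry, numbered AK, that carries no description. They were chosen by that match alone: the entry names a cDNA and ends in an empty annotation field, whereas other AK entries are described there as noncoding transcripts. In all, 1666 transcripts met the criterion, and 4 of them were left out by a fixed list of transcript numbers. The samples are C57BL/6J kidneys, 2 libraries in each of 6 groups. Wild-type (WT) mice and mice lacking Smad3 (Smad3-KO, here KO), a transcription factor switched on by the growth factor TGF-β, were each studied as normal, labelled untreated, as UUO at day 5, and as anti-GBM glomerulonephritis at day 10. In UUO (unilateral ureteral obstruction) the left ureter was tied off and the obstructed kidney taken. In the anti-GBM model, mice first sensitised to sheep IgG, given in Freund's complete adjuvant, received sheep antibody to the glomerular basement membrane at 60 μg per g of body weight. Groups of 8 mice of both sexes were used for UUO, and ages, the sex behind each library and the design of the knockout allele are not given in the sources used here. Smad3 itself and the protein-coding markers of kidney cells were not analysed here, so neither the knockout nor the tissue was checked against them. The labels give each library a code of its own and do not say that it is a separate animal, so p-values measure the spread between libraries, which may in part be technical.

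AK numbers are carried mainly by the large mouse collection of full-length cDNA clones, whose sequences were made by copying whole transcripts from many tissues. An entry without a description is neither called coding nor noncoding, so a transcript that matches one may be a long noncoding RNA, an intron, an untranslated region or a part of an mRNA. In kidney, obstruction and glomerular inflammation are known to deplete the transcripts of the working tubule and to bring in those of inflammatory and matrix-forming cells. The tables pair no transcript with a gene name or a position in the genome, and neither the 1154 distinct cDNA matches nor the transcripts could be tied to a symbol in the reference tables. The transcripts are therefore given by their number and their cDNA, with no function.

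The cDNA-matched transcripts were long and more often present than the rest. Their median length was 3164 bases, with quartiles at 1064 and 5693 and a range from 154 to 18784. The median was 581 bases over all 42452 and 1896.5 over the other transcripts with a database match. Reads were listed in all 12 libraries for 1010 of them (60.8%), against 43.7% of the 4849 transcripts whose cDNA is described as noncoding and 23.4% of all transcripts. A total of 35 were listed in 1 library only. The mean RPKM over the libraries, in the authors' tables a count divided by transcript length and by the library's listed reads, had a median of 2.57 with quartiles at 0.751 and 11.7, and reached 1571. Its median was 1.71 over all transcripts and 2.27 over the other transcripts with a database match.

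Libraries held between 4595261 and 7342937 listed reads, and between 8.51% (KO anti-GBM 1) and 12.1% (WT UUO 2) of them lay on the cDNA-matched transcripts. Between 1238 (KO anti-GBM 1) and 1523 (WT UUO 2) of the 1662 were listed in a library. In 3 libraries, WT UUO 1, KO UUO 1 and KO anti-GBM 1, reads covered these transcripts less broadly. Relative to what reads placed at random would cover, the median covered length there was 0.177 to 0.252, and in the other 9 libraries 0.334 to 0.425. A single transcript outside the set, ncRNA_aligned_7824, took 15.7% to 36.3% of the reads of these 3 libraries and 1.7% to 6.9% of the others. Each of the 3 belongs to an injured group of 2, so the comparisons of injured kidneys below are given with this difference beside them, and its part in them was not tested. In tissue RNA, fewer cells of a type and less RNA per cell cannot be told apart.

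Levels can be compared between transcripts only per length, and on the RPKM scale the highest was ncRNA_aligned_7837 (AK084058, 324 bases), with a mean of 1571 RPKM. It stood at 1771 and 1297 RPKM in WT normal, 118 and 1801 in WT UUO, 2239 and 2044 for WT anti-GBM, 3126 and 2549 in KO normal, 141 and 1277 in KO UUO and 196 and 2296 in KO anti-GBM. Its 3 lowest values are those of the 3 libraries of lower breadth, 118 to 196 RPKM against 1277 to 3126 in the other 9. The next highest were ncRNA_aligned_2297 (AK088783, 690 bases, mean 1317 RPKM) and ncRNA_aligned_6348 (AK008405, 884 bases, 1099.9). Within groups ncRNA_aligned_2297 spread widely. For it the 2 WT UUO libraries gave 588 and 4097 RPKM and the 2 KO anti-GBM libraries 161 and 1751 RPKM. Transcript ncRNA_aligned_6348 stayed between 503 and 1545 RPKM, with its lowest value in KO anti-GBM 1.

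The other 7 of the 10 highest had means from 489 to 910.4 RPKM. Transcript ncRNA_aligned_3684 (AK150730 and AK151250, 1118 bases) was at 1578 and 1487 RPKM in WT normal and 141 and 530.5 in WT UUO. In ncRNA_aligned_6531 (AK012489, 401 bases) the same groups gave 1350.3 and 930.04 and 94.97 and 338 RPKM, and in ncRNA_aligned_4884 (AK010583, 907 bases) 764 and 712 and 153 and 639. Each of these 3 was lower in both WT UUO libraries than in both WT normal libraries, and WT UUO 1, of lower breadth, was the lower of the pair. None of the 3 passed the test described below (edgeR adjusted p = 0.243, 0.184 and 0.432). On the scaled counts of that test, 618 of the 1312 tested cDNA-matched transcripts were lower in WT UUO without overlap. The share over all transcripts is not given here. The 4346-base ncRNA_aligned_924 (AK017254) was the steadiest of the 10 in RPKM, between 445 and 944. On the scaled counts of the tests it was lower in WT UUO and WT anti-GBM than in WT normal, without a call. The log2 fold changes were -1.22 and -1.23 (edgeR adjusted p = 0.109 and 0.403). Transcript ncRNA_aligned_2490 (AK088959, 357 bases) was at 365 and 216 RPKM in WT normal, 884 and 294 in WT UUO and 843 and 1715 in KO anti-GBM, so that the libraries of an injured group differed more from each other than those of WT normal. The others are ncRNA_aligned_5168 (AK088124, 2207 bases, mean 637 RPKM) and ncRNA_aligned_6547 (AK008208, 1247 bases, mean 489).

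**Figure D1:**
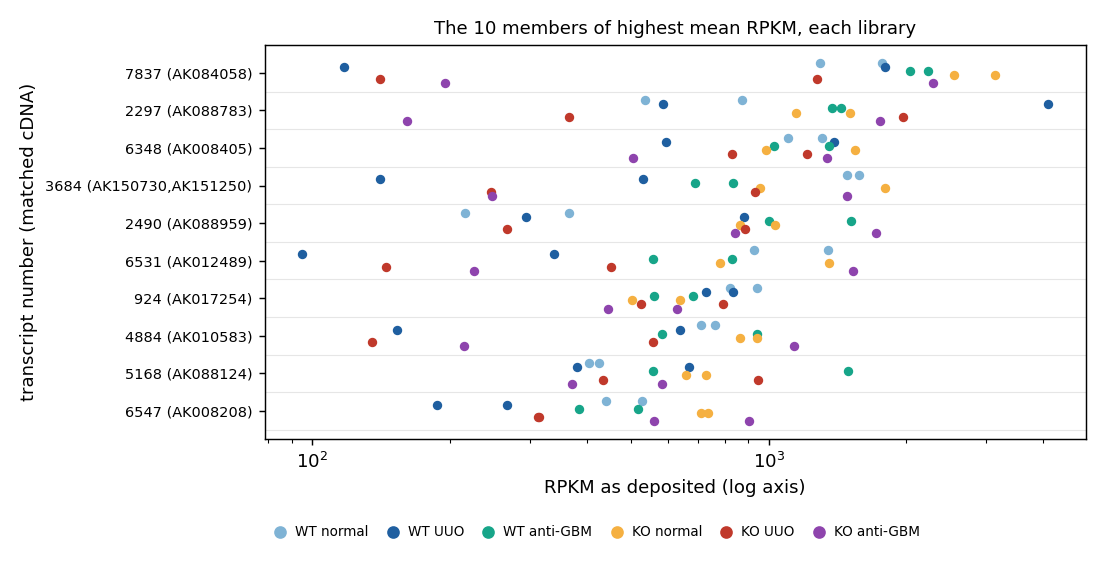
RPKM as deposited (log axis) of the 10 cDNA-matched transcripts of highest mean RPKM, each point 1 library and each colour 1 of the 6 groups with 2 libraries. The top transcript, ncRNA_aligned_7837, ranges from 118 to 3126 RPKM, with its 3 lowest points in WT UUO 1, KO UUO 1 and KO anti-GBM 1.

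At the other end, some of these transcripts varied little across genotype and injury on the scaled counts used here. On CPM, here read counts divided by a library size that edgeR's TMM method had scaled, the lowest coefficient of variation over the 12 libraries among those with a mean of 10 CPM or more was 0.11, in ncRNA_aligned_3157 (AK042549, 10797 bases, 489 to 685 CPM). Next came ncRNA_aligned_5980 (AK017009, 6696 bases, 201 to 299 CPM), ncRNA_aligned_797 (AK011714, 5793 bases, 100.2 to 163), ncRNA_aligned_3045 (AK034659, 15576 bases, 782 to 1088) and ncRNA_aligned_6121 (AK003347, 7963 bases, 289.5 to 456). All 5 are longer than the upper quartile of 5693 bases. The TMM factors of the libraries ran from 0.733 (KO anti-GBM 2) to 1.642 (WT UUO 2), and the variation under other scalings is not given here. Their coefficients of variation lay between 0.11 and 0.138, and the 3 libraries of lower breadth lay inside the range of the other 9, except WT UUO 1 and KO UUO 1 in ncRNA_aligned_6121. No cDNA-matched transcript was present in every library of 1 genotype and at 0 in the other.

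Obstruction of the WT kidney changed 78 of the 1312 cDNA-matched transcripts that passed the filter on low counts, 11 higher and 67 lower (edgeR quasi-likelihood test over all 24816 transcripts tested, Benjamini-Hochberg adjusted p under 0.05). The 78 are 5.95% of those tested, and over all transcripts 2.42% were called, 0.681% higher and 1.74% lower. Of the other transcripts with a database match 4.83% were called, and of those whose cDNA is described as noncoding 4.74%. The other 350 of the 1662 were too sparse for the test and are not judged. The split into higher and lower rests on the scaling: with DESeq2 size factors it was 22 and 48, and with library size alone 70 and 18. No transcript of the 78 changed its direction under either scaling, and 59 and 29 of them kept their call. The p-values measure the spread between the libraries of a group, 2 in each case, and draw on the spread pooled over all 6 groups.

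Among the 11 that rose, ncRNA_aligned_1883 (AK169930, 5042 bases) had the strongest statistical support. It stood at 29.1 and 24.1 CPM in WT normal and 551 and 649 in WT UUO, a log2 fold change of 4.50 ± 0.54 (SE, edgeR adjusted p = 7.41e-05). The WT anti-GBM libraries were at 91.4 and 77.9 CPM, in KO normal at 29.6 and 77.2, in KO UUO at 129.9 and 212 and in KO anti-GBM at 85.8 and 52.98. Both WT UUO libraries were thus above all 10 others, and both KO UUO libraries were above both KO normal ones. Reads covered 53.1% to 99.9% of its length, so the count comes from most of the transcript. Transcript ncRNA_aligned_3059 (AK151137, 4025 bases) rose from 2.99 and 4.77 to 93.6 and 59.5 CPM (log2 4.29 ± 0.65, adjusted p = 0.000761), and its KO UUO libraries gave 23.1 and 30.3 CPM against 7.31 and 13.4 in KO normal. Its reads lay on 6.78% to 23.6% of its length. These 2 were the only higher calls that held in all 21 fits made of this comparison.

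Several of the risers started near 0. Transcript ncRNA_aligned_7975 (AK089247, 3161 bases) was at 0.855 and 0 CPM in WT normal and 16.7 and 21.9 in WT UUO (log2 5.43 ± 1.17, edgeR adjusted p = 0.0113). In KO it was at 1.22 and 1.36 CPM in normal, 10.1 and 7.53 in UUO and 1.55 and 10.4 in anti-GBM kidneys. For ncRNA_aligned_3615 (AK008501, 2656 bases) the 2 WT normal libraries together had 3 reads and the 2 WT UUO libraries 247, a ratio of 41.1 with a 95% exact counting interval of 13.9 to 200.5 that covers counting error only. Its WT UUO libraries lay far apart, at 27.9 and 5.04 CPM, and the call (edgeR adjusted p = 0.0361) was lost without WT UUO 1 or without WT normal 2 (adjusted p up to 0.484). Transcript ncRNA_aligned_5197 (AK135044, 3950 bases) was at 2.14 and 1.08 CPM in WT normal and at 20.3 and 28.3 in WT UUO (log2 3.90 ± 0.90), and ncRNA_aligned_6621 (AK003006, 1645 bases) at 1.07 and 2.38 CPM in WT normal and at 15.3 and 48.9 in WT UUO (log2 4.21 ± 0.96). Both of these also stood higher in the KO UUO libraries, at 7.45 and 21.8 CPM for ncRNA_aligned_5197 and 5.75 and 25.8 for ncRNA_aligned_6621, than in KO normal, at 1.22 and 2.04 and 2.23 and 3.18.

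The other 5 risers were present in normal kidney and rose less steeply. Transcript ncRNA_aligned_3090 (AK157106, 4684 bases) went from 28.6 and 20.2 to 126 and 129 CPM (log2 2.39 ± 0.50, edgeR adjusted p = 0.00906), with WT UUO values that nearly coincide. For ncRNA_aligned_5992 (AK171045, 5932 bases) the values were 37.8 and 30.1 CPM and 166 and 134 CPM (log2 2.14 ± 0.53), and for ncRNA_aligned_2984 (AK032822, 6956 bases) 113 and 91.7 and 528 and 260.2 (log2 1.94 ± 0.49). Transcript ncRNA_aligned_7280 (AK029482, 5949 bases) was at 66.5 and 57.9 CPM in WT normal and at 322 and 154 in WT UUO (log2 1.94 ± 0.47), and ncRNA_aligned_6408 (AK087492, 5114 bases) at 78.9 and 76.1 CPM in WT normal and at 339.8 and 203 in WT UUO (log2 1.81 ± 0.45). In the last 3 of these the WT UUO library of lower breadth was the higher of the pair. All 11 higher calls except those of ncRNA_aligned_1883 and ncRNA_aligned_3059 were lost in 1 to 3 of the 12 fits that left out a library. Each of the 9 was lost without WT normal 1 or WT normal 2 or both, and 5 of them were lost without WT UUO 1 (ncRNA_aligned_2984, ncRNA_aligned_3615, ncRNA_aligned_5992, ncRNA_aligned_6408 and ncRNA_aligned_7280) and ncRNA_aligned_6621 without WT UUO 2.

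Among the 78 calls made with TMM scaling the falls were more numerous. The largest log2 fold changes were rises, 5.59 for ncRNA_aligned_3615 and 5.43 for ncRNA_aligned_7975. Transcript ncRNA_aligned_3756 (AK050085, 2242 bases) fell from 23.3 and 21.9 CPM in WT normal to 0.149 and 1.01 in WT UUO, a log2 fold change of -5.14 ± 1.01 (SE, edgeR adjusted p = 0.00685). In WT anti-GBM it stood at 2.32 and 3.7 CPM, in KO normal at 39.4 and 61.7, in KO UUO at 2.34 and 9.7 and in KO anti-GBM at 1.55 and 13.6, so that all 8 injured libraries lay below all 4 normal ones. Transcript ncRNA_aligned_3750 (AK029777, 579 bases) was at 10.3 and 10.4 CPM in WT normal and at 0 and 0.672 in WT UUO (log2 -4.70 ± 0.97), and in KO at 29.8 and 18.4 CPM in normal and 0.639 and 0.669 in UUO. It did not share the pattern of ncRNA_aligned_3756 in nephritis, where WT anti-GBM gave 9.03 and 6.97 CPM and KO anti-GBM 7.21 and 25.2. Transcript ncRNA_aligned_7491 (AK007695, 1720 bases) fell from 114 and 87.4 to 2.83 and 5.54 CPM (log2 -4.57 ± 0.81), and ncRNA_aligned_3573 (AK143796, 1532 bases) from 19.9 and 24.7 to 0.447 and 1.51 (log2 -4.43 ± 0.93).

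The smallest adjusted p among the falls belonged to ncRNA_aligned_4959 (AK006005, 3557 bases). It was at 109.9 and 168 CPM in WT normal and 5.51 and 7.89 in WT UUO (log2 -4.36 ± 0.59, edgeR adjusted p = 0.000204), with the WT anti-GBM libraries at 20.01 and 40.1 CPM. In KO the 3 states gave 99.3 and 110.3, 39.8 and 39.3 and 46.1 and 117 CPM, so the KO UUO libraries lay between WT UUO and the normal kidneys. Transcript ncRNA_aligned_7418 (AK138466, 2580 bases), which carries a match to the SNORD17 small nucleolar RNA model, fell from 329 and 301 to 13.6 and 24.9 CPM (log2 -4.03 ± 0.68). Its KO normal libraries disagreed, at 129 and 366 CPM. Transcripts ncRNA_aligned_3284 (AK009518, 4260 bases, 41.9 and 30.4 against 2.98 and 1.34 CPM, log2 -4.08 ± 0.75) and ncRNA_aligned_852 (AK090016, 1878 bases, 19.7 and 25.8 against 1.79 and 1.51 CPM, log2 -3.78 ± 0.75) followed. Reads covered only 6.9% to 12.7% of ncRNA_aligned_3284, so its level speaks for a small part of it.

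Transcript ncRNA_aligned_4383 (AK052609, 10936 bases) is an even clearer case of reads on a small part of a long transcript, with 2.47% to 7.15% covered. It fell from 34.2 and 25.6 to 3.28 and 1.76 CPM (log2 -3.57 ± 0.75, edgeR adjusted p = 0.00882). Transcript ncRNA_aligned_3685 (AK008978, 1184 bases) fell from 193 and 251 to 11.2 and 31.4 CPM (log2 -3.37 ± 0.64). The most abundant of the 12 steepest falls in CPM was ncRNA_aligned_3646 (AK003422, 2794 bases), at 1113 and 1220.2 CPM in WT normal and 86.7 and 178 in WT UUO (log2 -3.14 ± 0.73, adjusted p = 0.041). Its 2 KO UUO libraries lay at 149 and 741 CPM, the lower being the one of lower breadth. The sparsest, ncRNA_aligned_5169 (AK020779, 1701 bases), went from 9.83 and 5.42 to 0.447 and 0.42 CPM (log2 -4.08 ± 1.09, adjusted p = 0.0466), a call that was lost without any of the 4 WT UUO and WT normal libraries.

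The remaining 55 falls had log2 fold changes between -3.06 and -1.55, adjusted p between 0.00033 and 0.0491, and mean levels between 14.0 and 2283 CPM. Among them is the longest of all 1662, ncRNA_aligned_4079 (AK053132, 18784 bases), described with the genotypes below. Of the 67 lower calls, 31 were called whichever library was left out, and 17 held in all 21 fits, the alternatives in tool, filter and scaling included. Besides 8 of the 12 named above, the 17 are ncRNA_aligned_19, ncRNA_aligned_59, ncRNA_aligned_2193, ncRNA_aligned_3388, ncRNA_aligned_3642, ncRNA_aligned_6035, ncRNA_aligned_6976, ncRNA_aligned_7430 and ncRNA_aligned_7553, named after their values were seen. The 4 of the 12 that did not hold in every fit are ncRNA_aligned_3750, ncRNA_aligned_5169, ncRNA_aligned_4383 and ncRNA_aligned_3646. Without WT UUO 1, the library of lower breadth, 50 of these transcripts were called, 40 of them among the 78. In the 9 libraries of higher breadth, where WT UUO is a single library assumed to vary like the other groups, 284 were called, and all 78 were among them. DESeq2 called 139, with all 78 among them, beside 7.26% over all transcripts to which it gave an adjusted p. For the other fits, above and below, shares over all transcripts are not given. Their counts are therefore not read as particular to this set.

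**Figure D2:**
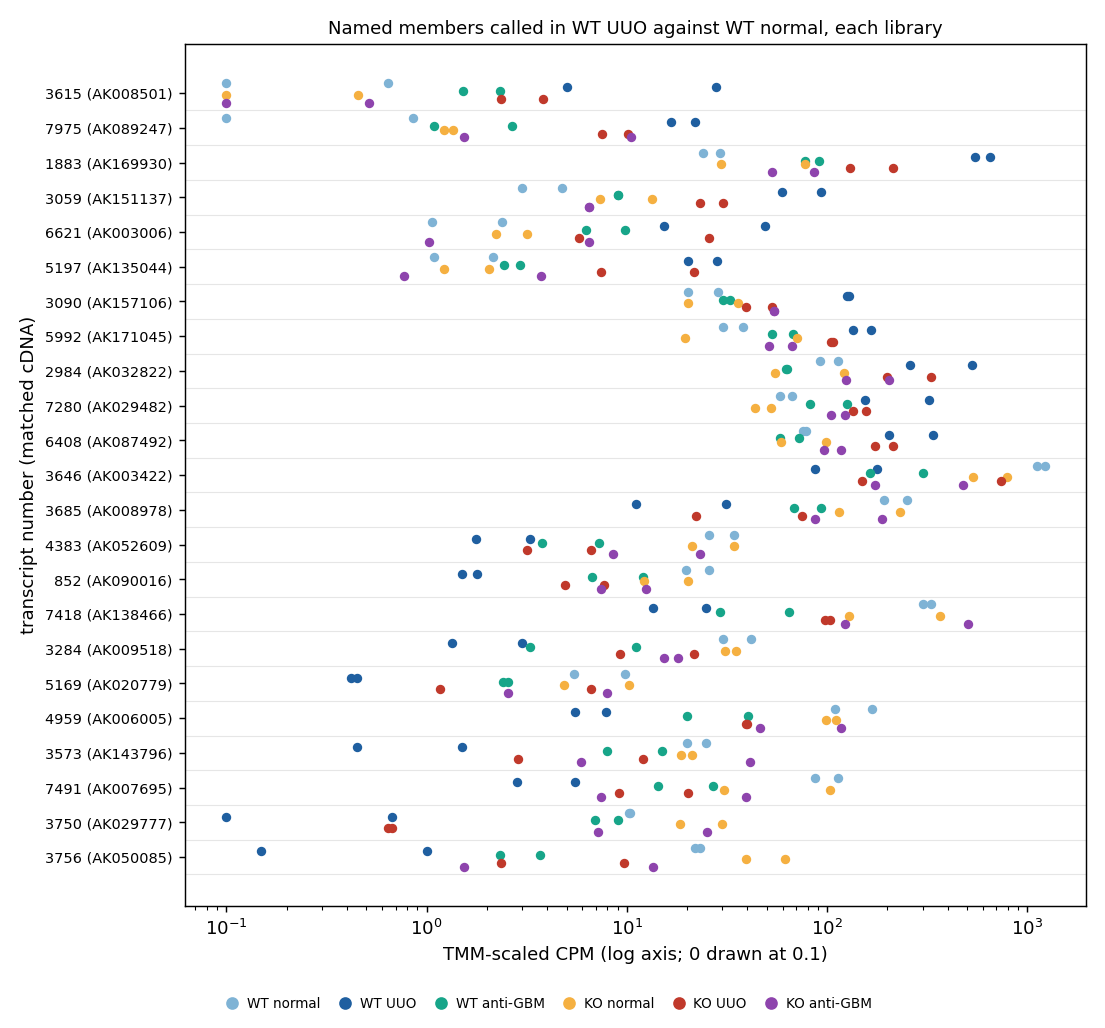
TMM-scaled CPM (log axis, 0 drawn at 0.1) of the 11 higher and the 12 steepest lower calls in WT UUO, each point 1 library and each colour 1 of the 6 groups with 2 libraries. In each row the WT UUO and WT normal points do not overlap, as the rule for naming required. The WT UUO points of ncRNA_aligned_1883, at 551 and 649 CPM, lie above all others of that row.

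The KO kidneys are separate libraries, and they give a second measurement of the transcripts picked in WT. Each of the 11 higher calls was higher in both KO UUO libraries than in both KO normal libraries, with a median log2 fold change of 1.59 against 3.90 in WT. Over all 24816 transcripts, 16.7% were higher without overlap in KO UUO and 19.3% lower, and over the tested cDNA-matched ones 222 of 1312 were higher and 370 lower. Of the 67 lower calls, 60 had a negative log2 fold change in KO UUO, and 49 were lower in it without overlap. Their median was -0.86 in KO against -2.28 in WT. The count of 60 is 89.6%, beside 60.1% of all tested cDNA-matched transcripts, and with library size alone it was 46 beside 35.9%. The transcripts were picked for a large change in WT, so the smaller size in KO is not by itself a measured difference between the genotypes. The interaction of genotype with UUO, which tests such a difference, passed for none of the 78. It was above 0 for 66 of the 67 lower calls and below 0 for all 11 higher ones. An unadjusted edgeR p under 0.05 was reached by 33 and 3 of them, beside 75 of the 1312 tested (5.72%) and 5.63% over all transcripts. The interaction holds the WT libraries used for the picking, so these signs and counts are not separate support.

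**Figure D3:**
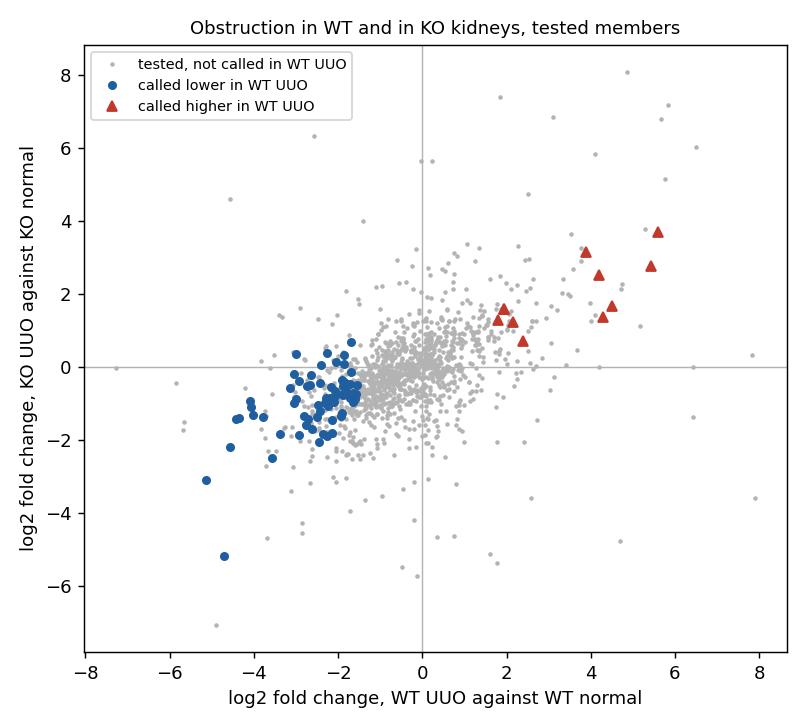
Log2 fold change of each of the 1312 tested cDNA-matched transcripts in WT UUO against WT normal (x axis) and in KO UUO against KO normal (y axis), with the transcripts called in WT UUO marked. The 11 higher calls all lie above 0 on the y axis and 60 of the 67 lower calls lie below it.

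In KO UUO against KO normal, none of the 1312 passed the edgeR test (0 called, 0.0121% over all transcripts). An unadjusted p under 0.05 was reached by 135 (10.3%, beside 5.98% over all). DESeq2 called 11, beside 1% of all transcripts to which it gave an adjusted p, the base of each DESeq2 share below. Lowest in p was ncRNA_aligned_3750, already seen to fall in WT, with 29.8 and 18.4 CPM in KO normal and 0.639 and 0.669 in KO UUO (log2 -5.17 ± 0.97, adjusted p = 0.0918, between 1.47e-05 and 0.0164 in the 12 fits without 1 library, 0.815 with only the 4 libraries compared and 0.3 with the stricter filter). Second was ncRNA_aligned_6547, 1 of the 10 highest in RPKM, at 1136 and 1199 CPM and 270.2 and 404 CPM (log2 -1.79 ± 0.40, adjusted p = 0.165). It was called lower in WT UUO, where it went from 870.1 and 746 to 160.3 and 205 CPM. In both genotypes its UUO libraries lay below its normal ones. Without KO UUO 2 the number of calls was 134, and it was 2 without KO normal 2.

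In WT anti-GBM against WT normal none of the 1312 passed (0 by edgeR, 0.0201% over all transcripts). An unadjusted p under 0.05 was found for 116 (8.84%, beside 6.56% over all), and DESeq2 called 14, beside 2.14% over all. Other fits differed widely, with 176 calls when only these 4 libraries were fitted and no share over all transcripts at hand. Lowest in p was ncRNA_aligned_4079, at 4714 and 4149 CPM in WT normal and 1074 and 1256 in WT anti-GBM (log2 -1.93 ± 0.42, adjusted p = 0.119). Next was ncRNA_aligned_7430 (AK009873, 3785 bases), at 1825 and 1578 CPM and 401 and 585 CPM (log2 -1.79 ± 0.40, adjusted p = 0.121). This transcript was called lower in WT UUO, at 234 and 195 CPM (log2 -2.99 ± 0.42, adjusted p = 0.00033). Both WT models are set against the same WT normal libraries.

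In KO anti-GBM against KO normal, 1 of the 1312 passed (0.0762%, beside 0.0524% over all transcripts, 0.0484% higher). This is ncRNA_aligned_11888 (AK161191, 5688 bases), which rose from 24.97 and 35.4 to 291 and 608 CPM (log2 3.89 ± 0.57, edgeR adjusted p = 0.00228). The call held in all 12 fits without 1 library, with adjusted p between 2.18e-12 and 0.00246, and it was lost when only these 4 libraries were fitted (adjusted p = 0.169). In WT the transcript was at 129.99 and 132 CPM in normal, 41.3 and 89.5 in UUO and 464 and 175 in anti-GBM kidneys, and in KO UUO at 80.7 and 103. Anti-GBM kidneys were thus the highest of the 3 states in both genotypes. UUO kidneys lay below normal in WT and above normal in KO. In normal kidneys it had 1 of the 2 lowest p-values between the genotypes, lower in KO by a log2 difference of -2.11 ± 0.53 that did not pass (adjusted p = 0.408), and the fold change in KO is measured from these lower KO normal libraries. At an unadjusted p under 0.05 stood 116 (8.84%, beside 8.75% over all), and DESeq2 called 8 in this comparison, beside 0.796% over all. The edgeR count moved with the library left out.

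Setting the 2 models against each other in WT, 3 transcripts passed as higher in UUO than in anti-GBM and none as lower (0.229% called, beside 0.0967% over all transcripts, 0.0604% higher). They are ncRNA_aligned_1883 (log2 2.82 ± 0.50, edgeR adjusted p = 0.0206), ncRNA_aligned_2984 (2.64 ± 0.51, 0.0332) and ncRNA_aligned_3059 (3.08 ± 0.61, 0.0403), each also among the risers in WT UUO. Both comparisons use the same WT UUO libraries, so this overlap is not separate support. Transcript ncRNA_aligned_2984 stood at 63.3 and 62.6 CPM in WT anti-GBM, below its WT normal level, while ncRNA_aligned_3059 at 9.03 and 9.04 was above it. All 3 calls were lost when only these 4 libraries were fitted or with the stricter filter, and also without WT anti-GBM 2 (adjusted p between 0.0982 and 0.476). Those of ncRNA_aligned_2984 and ncRNA_aligned_3059 were lost without WT UUO 1 or WT anti-GBM 1 as well. At an unadjusted p under 0.05 stood 124 (9.45%, beside 5.77% over all), and DESeq2 called 18, beside 1.18% over all. Between the models in KO none passed (0 by edgeR, 0.0242% over all). There 180 had an unadjusted p under 0.05 (13.7%, beside 13.1% over all), and DESeq2 called 28, beside 2.19% over all. The lowest p was that of ncRNA_aligned_7770 (AK036748, 3381 bases), which had 0 reads in both KO anti-GBM libraries and 9.26 and 9.2 CPM in KO UUO. With 3 counts over both KO anti-GBM libraries as the limit, 0.335 CPM, it was at least 27.6-fold higher in KO UUO (adjusted p = 0.0749). It was also higher in WT UUO, at 13.7 and 22.4 CPM, than in WT anti-GBM, at 2.68 and 0.654. Second was ncRNA_aligned_5063 (AK008597, 1650 bases), at 128 and 186 CPM in KO UUO and 603 and 772 in KO anti-GBM (log2 -2.13 ± 0.43, adjusted p = 0.0988).

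The genotypes were compared within each state. In normal kidneys no transcript of the 1312 passed between KO and WT (0 by edgeR, 0.0161% over all transcripts). An unadjusted p under 0.05 was found for 34 (2.59%, beside 2.22% over all), and DESeq2 called 3, beside 0.435% over all. The lowest p belonged to ncRNA_aligned_2310 (AK003445, 3421 bases). It was at 1039 and 1054 CPM in WT normal, and in every other group between 272 and 643 CPM, with KO normal at 272 and 331 (log2 -1.80 ± 0.40, adjusted p = 0.317). WT normal thus stood apart from the other 5 groups. Under UUO none passed either (0 by edgeR, 0.00806% over all). An unadjusted p under 0.05 was found for 98 (7.47%, beside 6.08% over all), and DESeq2 called 5, beside 0.687% over all. The 2 of lowest p, ncRNA_aligned_7430 and ncRNA_aligned_4959, are both falls of WT UUO. Both comparisons use the same WT UUO libraries, so this overlap is not separate support. In KO UUO ncRNA_aligned_7430 stood at 787 and 832 CPM against 234 and 195 in WT UUO (log2 1.92 ± 0.40, adjusted p = 0.12), and for ncRNA_aligned_4959 the log2 difference was 2.55 ± 0.54 (adjusted p = 0.123).

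In anti-GBM kidneys the genotypes differed in none that passed (0 by edgeR, 0.0201% over all transcripts). An unadjusted p under 0.05 was found for 186 (14.2%, beside 14.8% over all), and DESeq2 called 25, beside 2.32% over all. Lowest in p was ncRNA_aligned_1710 (AK009789, 5372 bases), at 14.03 and 28.3 CPM in WT anti-GBM and 104 and 268 in KO anti-GBM (log2 3.13 ± 0.58, adjusted p = 0.0519). In normal kidneys its order was the other way, with 55.4 and 62.9 CPM in WT and 38.8 and 38.8 in KO. In UUO it was at 19.4 and 9.57 CPM in WT and 56.5 and 32.96 in KO. Its neighbour in number, ncRNA_aligned_1711 (5701 bases), matches the same cDNA and had the same order at a lower level, 2.56 and 5.99 CPM in WT anti-GBM and 27.1 and 66.8 in KO anti-GBM. Second was ncRNA_aligned_7553 (AK008165, 1993 bases), at 73.7 and 90.4 and 325 and 419 CPM (log2 2.18 ± 0.45, adjusted p = 0.0619). Averaged over the 3 states no transcript passed (0 by edgeR, 0.0403% over all). In this average 120 had an unadjusted p under 0.05 (9.15%, beside 9.08% over all), and DESeq2 called 8, beside 0.667% over all. There ncRNA_aligned_1711 (log2 1.75 ± 0.40) and ncRNA_aligned_1710 (1.39 ± 0.32) had the lowest p, both at adjusted p = 0.135.

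The interactions ask whether an injury acted differently in KO than in WT, and ncRNA_aligned_4079 came nearest to passing. In WT it was at 4714 and 4149 CPM in normal, 1365 and 497 in UUO and 1074 and 1256 in anti-GBM kidneys, and its fall in WT UUO passed (log2 -2.25 ± 0.42, edgeR adjusted p = 0.00408). In KO it was at 1259 and 1723 CPM in normal, 2175 and 1758 in UUO and 3085 and 4339 in anti-GBM. Injured kidneys thus lay below normal in WT and above normal in KO, in both models and in every library. The anti-GBM interaction was 3.24 ± 0.59 on the log2 scale with adjusted p = 0.0508, just over the threshold. It passed in all 12 fits without 1 library (1.67e-07 to 0.0172) and with only the groups compared (0.0238), and it did not pass with the stricter filter (edgeR adjusted p = 0.2). The UUO interaction was 2.65 ± 0.58 (adjusted p = 0.102, from 0.000193 to 0.11 without 1 library, 0.251 with only the groups compared and 0.24 with the stricter filter). Reads covered 67.9% to 74.03% of this transcript in every library, those of lower breadth included. None of the 1312 passed either interaction (0 by edgeR, with 0.0604% over all transcripts for UUO and 0.0161% for anti-GBM). An unadjusted p under 0.05 was reached by 75 for UUO (5.72%, beside 5.63% over all) and 123 for anti-GBM (9.375%, beside 10%). DESeq2 called 11 and 5, beside 1.3% and 0.726% over all. The others of lowest p were ncRNA_aligned_19 for UUO (log2 2.87 ± 0.64, adjusted p = 0.103) and ncRNA_aligned_1710 for anti-GBM (log2 3.74 ± 0.78, adjusted p = 0.111).

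Transcripts are not always separate genes, since 860 of the 1662 share their cDNA with another. Of the 1154 distinct matches, 802 were hit once, 248 by 2 transcripts, 71 by 3 and 33 by 4 or more, and 14 transcripts match several cDNAs at once. The 78 calls in WT UUO fall on 76 distinct matches. Transcripts ncRNA_aligned_19 (7646 bases) and ncRNA_aligned_51 (7112 bases) both match AK039782 and fell together. The first went from 166 and 215 to 23.5 and 22.2 CPM and the second from 45.3 and 41.8 to 2.68 and 8.06, with log2 fold changes of -3.06 ± 0.48 and -3.00 ± 0.64. Transcripts ncRNA_aligned_6994 and ncRNA_aligned_6996, both on AK140411, were also called lower (-2.06 ± 0.46 and -2.40 ± 0.64), with ncRNA_aligned_6995 at -2.06 on the same cDNA but without a call. On the shared cDNA AK008501, ncRNA_aligned_3615 was called and ncRNA_aligned_3614 was not, at 4.19 on the log2 scale.

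Partners on a shared cDNA did not always lie on the same side of 0. Of 211 matches with exactly 2 tested transcripts, 135 (64.0%) had both on the same side of 0 in WT UUO. Within a shared match the median range of log2 fold changes was 1.08. In each of the 14 shared matches with 1 or more called transcripts, the tested transcripts lay on the same side of 0. Reads that fit both partners cannot be told apart if the counting assigned them to either, so such partners are uncertain as separate measurements. The most crowded match was AK011169, with 8 transcripts between 4168 and 6414 bases long. Only 2 of the 8 passed the filter, ncRNA_aligned_2873 (log2 -0.93 ± 0.93 in WT UUO, no call) and ncRNA_aligned_2884 (-1.49 ± 1.43, no call). The highest of the 8, ncRNA_aligned_2873, ranged from 1.19 to 8.03 CPM. The next most crowded, AK010132, AK013500, AK041687, AK077899 and AK140852, had 6 transcripts each. The 6 on AK041687 are 11944 to 16879 bases long and all stayed at or below 5.32 CPM, whereas on AK077899 ncRNA_aligned_4209 and ncRNA_aligned_4210 reached 19.9 and 13.3 CPM. No transcript on these 6 matches was called in any comparison.

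**Figure D4:**
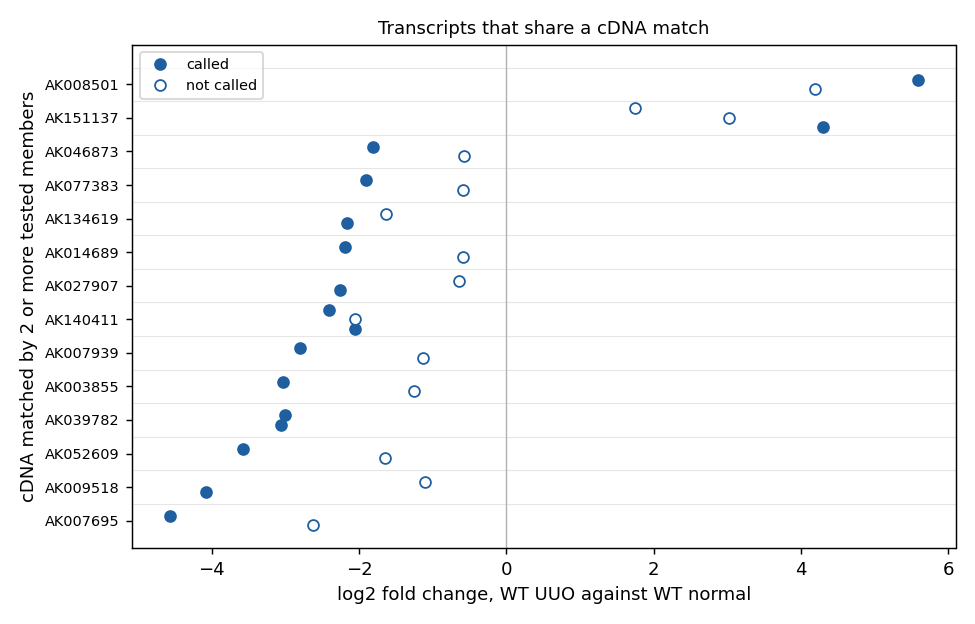
Log2 fold change in WT UUO against WT normal of every tested transcript on the 14 shared cDNA matches that hold at least 1 call, filled where called (edgeR adjusted p under 0.05) and open where not. In every row the points lie on 1 side of 0, and on AK039782 both are called, at -3.06 and -3.00.

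Besides the cDNA, the tables give each transcript's match to an RFAM model, a statistical description of a known RNA family. Of the 1662, 326 (19.6%) had one, against 10.0% of all transcripts. The share was 17.5% in the other transcripts with a database match and 18.3% in those whose cDNA is described as noncoding. The 326 spread over 61 models, 16 of them with a single transcript. The most frequent was SRP_euk_arch, the RNA of the signal recognition particle that brings ribosomes to the endoplasmic reticulum, with 99 transcripts. They are 30.4% of those with a model, beside 40.8% over all transcripts and 28.9% over the other matched ones. The mouse B1 repeat descends from this RNA and is scattered through introns and untranslated regions, and the tables do not say which a match reflects. Of 86 tested transcripts with this model, 0 were called higher and 4 lower in WT UUO (4.65%), beside 0.681% higher and 1.74% lower over all transcripts and 5.95% of the tested cDNA-matched ones called either way. They had a median log2 fold change of -0.41. Models of vertebrate small nucleolar and Cajal body RNAs, which guide the modification of ribosomal and spliceosomal RNA, were matched by 57. Of these 46 were tested and 5 called (10.9%), all lower, with a median of -0.29, beside 2.42% called and 1.74% called lower over all transcripts. The 5 include ncRNA_aligned_7418 (SNORD17), ncRNA_aligned_4383 (snoU85), ncRNA_aligned_4079 (snoU90) and the pair on AK039782 (snoU89).

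Yeast small nucleolar RNA models were matched by 45 transcripts, with 1 higher and 1 lower call among 37 tested (5.41%, median -0.02). The higher one is ncRNA_aligned_7975 (snR84). Internal ribosome entry sites, elements that let ribosomes start inside an mRNA, were matched by 24, with 2 lower calls among 22 tested (9.09%, median 0.10). The 1040 tested transcripts without a model had 9 higher and 50 lower calls (5.67%) and a median of -0.59. The median of all 1312 was -0.50. Over all transcripts 2.42% were called, 0.681% higher and 1.74% lower. These counts and medians are a description, since no list was tested. Several frequent names, such as isrG with 15 transcripts and CsrC and OLE with 8 each, belong to RNAs of bacteria, and MIR821 with 11 to plants. The tables give no score for these matches, so a model's name says nothing certain about a mouse transcript. The classes were drawn up after the names were seen.

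As a body, the cDNA-matched transcripts sat lower in WT injury than the whole table of transcripts, whichever scaling was used. Their median log2 fold change in WT UUO was -0.50, and that of all 24816 transcripts 0.49, a gap of -0.993. With DESeq2 size factors the medians were -0.24 and 0.76 (gap -0.999), and with library size alone 0.55 and 1.55. The scaling thus moves the zero line and leaves the gap in place. The 3461 tested transcripts whose cDNA is described as noncoding had a median of 0.00, the 6723 matched ones outside the set -0.17 and the 16781 predicted ones 0.89. The gap to the other matched transcripts was thus smaller than that to all transcripts, most of which are predicted. The same held in WT anti-GBM, where the other matched ones stood at -0.19. In WT anti-GBM the medians of the cDNA-matched and of all transcripts were -0.39 and 0.30, in KO UUO -0.22 and 0.00, and in KO anti-GBM 0.06 and -0.37, where the order turned. Between the genotypes in anti-GBM kidneys the medians were 0.39 and -0.62, and with library size alone -0.36 and -1.37. The sign of the first thus rests on the scaling, and the cDNA-matched transcripts lay above all transcripts under both. WT anti-GBM has no library of lower breadth and KO anti-GBM has 1, and the part of breadth in these medians was not tested. The comparisons within a genotype share their normal libraries.

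Length separates these transcripts from the rest, and the gap was found in the short and middle lengths. The other transcripts in this comparison are mostly predicted ones, 16781 of the 24816 tested. Over all 31600 predicted ones the median length was 443 bases. Matched transcripts alone were not compared by length, so the part of the predicted ones in this gap was not tested. Up to 500 bases the median in WT UUO was -0.35 for the 104 cDNA-matched transcripts and 1.28 for other transcripts, from 500 to 1000 bases -0.93 and 0.71, and from 1000 to 2000 bases -1.14 and 0.46. From 2000 to 4000 bases the gap was smaller, at -0.77 and -0.17. Between 4000 and 8000 bases the medians were -0.22 and -0.25, and over 8000 bases 0.00 and 0.05, so there the curves met. None of the 104 shortest cDNA-matched transcripts was called, beside 0.856% of other transcripts of that length. Between 500 and 1000 bases 2.76% were called, against 0.889% of the others, and between 1000 and 2000 bases 6.77% against 2.27%. In the next bin 27 of the 293 between 2000 and 4000 bases were (9.22%, against 6.14% of other transcripts of that length), and above 4000 bases the shares were 5.61% and 6.67%, against 5.78% and 5.62%. None of the 10 calls over 8000 bases was a rise.

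**Figure D5:**
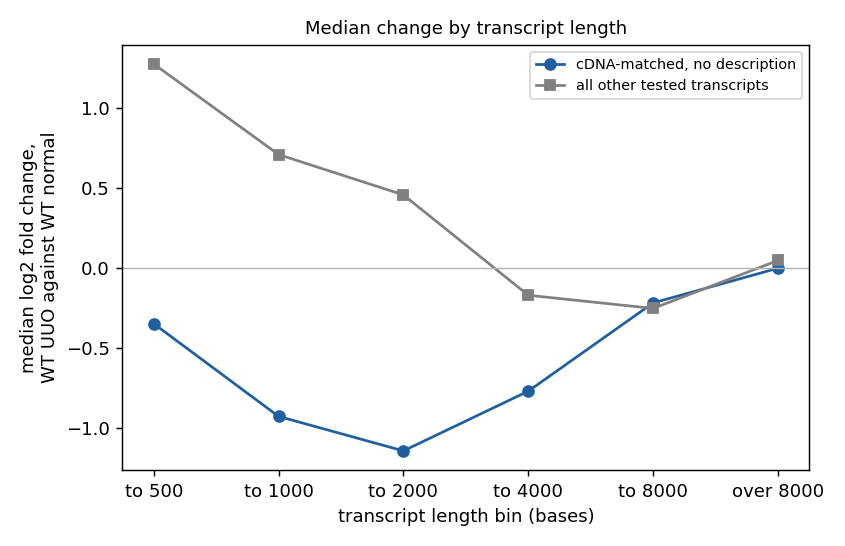
Median log2 fold change in WT UUO against WT normal (y axis) by length bin in bases (x axis) for the 1312 tested cDNA-matched transcripts (circles) and all other tested transcripts (squares), with TMM scaling and no error bars. Most of the other transcripts are predicted ones. In the shortest bin the medians are -0.35 and 1.28, and over 8000 bases they are 0.00 and 0.05.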

How the data were processed

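RNA over 150 bases, depleted of ribosomal RNA, was sequenced from kidney in 12 libraries, 6 groups of 2, each with a table of its own. The submitters' processing notes name Bowtie 0.12.7 and the mm9 build. Per the file headers, the authors deposited for each listed transcript the number of uniquely mapped reads (a raw count), the percent of its length covered, the mean depth as a coverage signal, which was not used, and an RPKM. A transcript without reads in a library is not listed there and was taken as 0. The assembler, counter and strand setting are not given in the sources used here, so reads from opposite strands or from overlapping transcripts may be mixed.

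The 1662 transcripts are those whose match field names an AK cDNA with an empty description. Members, lists and alternatives were chosen with earlier results of these data known. Counts over all transcripts were fitted with edgeR (version 4.0.16, run in R 4.3.3), with TMM scaling, filterByExpr, 1 mean per group, robust quasi-likelihood, and 12 contrasts. P-values were adjusted by the Benjamini-Hochberg method over the 24816 transcripts tested, with a threshold of 0.05. CPM values use the TMM-scaled library sizes, and breadth was measured on transcripts of 500 bases or more with 20 to 200 reads. Alternatives were DESeq2 1.42.0 and its size factors, library size alone, no filter, a filter of 1 CPM in 6 libraries, limma 3.58.1 voom with quality weights, only the groups compared, the 9 libraries of higher breadth, and each library left out. The fits were tested on simulated counts. An exact test of 2 against 2 libraries cannot go below p = 0.3333.

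Named transcripts are, per comparison, up to 12 called in each direction by size of change, with at least 2 CPM on average and no overlap between groups. To these come the 10 of highest mean RPKM, those on the cDNAs matched most often, any present in 1 genotype only, the 2 of lowest p where none was called, and the 5 of lowest coefficient of variation at 10 CPM or more.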

Additional observations from a re-analysis of the deposited data

Results flagged for a closer look

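In some transcripts both libraries of an injured WT group lay on one side of the WT normal libraries while both injured KO libraries lay on the other side of KO normal. Among the 1067 tested cDNA-matched transcripts with a mean of 2 CPM or more, 38 (3.56%) did so in UUO and 144 (13.5%) in anti-GBM. The share over all transcripts is not given here, so these counts are not read as particular to this set. The values below are those of the ones called in any comparison or named by rule, 3 in UUO and 16 in anti-GBM. The difference itself was tested as the interaction of genotype and injury (edgeR quasi-likelihood test, Benjamini-Hochberg adjusted p), and none passed. A p that misses the threshold does not show that the genotypes respond alike, and the part of the lower breadth of WT UUO 1, KO UUO 1 and KO anti-GBM 1 in these values was not tested.

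The longest of the transcripts, ncRNA_aligned_4079, had log2 fold changes of -1.93 in WT and 1.32 in KO in anti-GBM kidneys, an interaction of 3.24 (adjusted p = 0.0508). In UUO kidneys the same transcript had -2.25 and 0.40, an interaction of 2.65 (adjusted p = 0.102). In UUO ncRNA_aligned_11888 had a log2 fold change of -0.999 in WT and 1.60 in KO, an interaction of 2.60 (adjusted p = 0.294). Also in UUO, ncRNA_aligned_51 had -3.00 in WT and 0.36 in KO, an interaction of 3.36 (adjusted p = 0.195). The others were found in anti-GBM kidneys. Of the pair on AK009789, ncRNA_aligned_1710 had -1.48 in WT and 2.26 in KO, an interaction of 3.74 (adjusted p = 0.111), and ncRNA_aligned_1711 had -1.17 and 2.07, an interaction of 3.24 (adjusted p = 0.332). For ncRNA_aligned_7553 the values were -1.60 and 1.36, with an interaction of 2.95 (adjusted p = 0.111). On AK013500, ncRNA_aligned_7222 had -1.53 in WT and 1.52 in KO, an interaction of 3.04 (adjusted p = 0.425). Transcript ncRNA_aligned_2310 had -1.65 and 0.55, an interaction of 2.21 (adjusted p = 0.271). For ncRNA_aligned_5063 the interaction was 1.55 (adjusted p = 0.437), from -0.69 in WT and 0.86 in KO. For ncRNA_aligned_2984 it was 1.60 (adjusted p = 0.47), from -0.70 and 0.89. Among other transcripts called lower in WT UUO, ncRNA_aligned_2024 had -1.60 and 0.69, an interaction of 2.29 (adjusted p = 0.372). The interaction was 1.79 for ncRNA_aligned_4092 (adjusted p = 0.332, -1.17 in WT and 0.63 in KO) and 1.75 for ncRNA_aligned_4058 (adjusted p = 0.354, -1.32 and 0.44). It was 1.49 for ncRNA_aligned_6944 (adjusted p = 0.465, -0.82 and 0.67), 1.10 for ncRNA_aligned_3238 (adjusted p = 0.521, -0.74 and 0.36) and 0.65 for ncRNA_aligned_6413 (adjusted p = 0.694, -0.38 and 0.27). Of those given here only ncRNA_aligned_3059 went the other way, with 1.22 in WT and -0.67 in KO, an interaction of -1.89 (adjusted p = 0.48). The smallest was that of ncRNA_aligned_797, 1 of the 5 steadiest transcripts, at 0.49 (adjusted p = 0.803), from -0.26 in WT and 0.23 in KO. All these values use TMM scaling. With it the median anti-GBM interaction of the tested cDNA-matched transcripts was 0.48, and with library size alone -0.32. Their median change in WT anti-GBM was -0.39 and 0.33 in the same order. The opposite signs of the smaller changes may therefore rest on the scaling.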

How the results depend on the processing

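Counts of called transcripts moved with the fit, and the direction of a called transcript did not. Shares over all transcripts are not given for these other fits, except above for DESeq2. The moves are therefore not read as particular to the cDNA-matched transcripts. In WT UUO each of the 78 kept its sign in all 20 other fits. The 34 transcripts named for a comparison gave 898 other fits, of which 618 kept the direction and the side of the threshold, 51 lost the call, 229 gained one and 0 turned. The shares of tested transcripts called are given where the count differed by more than 1.5 times from that reported, which was 5.95% in WT UUO, 0.0762% in KO anti-GBM, 0.229% in WT UUO against WT anti-GBM and 0 in the other 9 comparisons. With DESeq2 size factors in the edgeR fit they were 0.152% in KO against WT in anti-GBM, 0.0762% in the anti-GBM interaction, 0.457% in WT UUO against WT anti-GBM and 0.0762% in KO UUO against KO anti-GBM. With library size alone they were 0.229% in WT anti-GBM, 0.61% in KO UUO, 0.152% in KO anti-GBM, 0.0762% in KO against WT in UUO, 0.686% in KO against WT in anti-GBM, 0.0762% in KO against WT averaged over the states, 0.0762% in the UUO interaction, 0.534% in WT UUO against WT anti-GBM and 0.686% in KO UUO against KO anti-GBM. Without a filter on low counts they were 7.64% in WT UUO, 0.602% in WT anti-GBM, 0.542% in KO UUO, 0.241% in KO anti-GBM, 0.241% in KO against WT in normal kidneys, 0.301% in KO against WT in UUO, 0.842% in KO against WT in anti-GBM, 0.481% in KO against WT averaged over the states, 0.421% in the UUO interaction, 0.361% in the anti-GBM interaction, 0.722% in WT UUO against WT anti-GBM and 1.14% in KO UUO against KO anti-GBM. With the stricter filter they were 0% in WT UUO against WT anti-GBM. DESeq2, over the transcripts it gave an adjusted p, called 11.1% in WT UUO, 1.43% in WT anti-GBM, 1.01% in KO UUO, 0.717% in KO anti-GBM, 0.288% in KO against WT in normal kidneys, 0.427% in KO against WT in UUO, 2.03% in KO against WT in anti-GBM, 0.66% in KO against WT averaged over the states, 1.06% in the UUO interaction, 0.418% in the anti-GBM interaction, 1.57% in WT UUO against WT anti-GBM and 2.27% in KO UUO against KO anti-GBM. Limma voom with quality weights gave 13.4% in WT UUO, 11.7% in WT anti-GBM, 0.305% in KO anti-GBM, 1.07% in KO against WT in normal kidneys, 0.838% in KO against WT in anti-GBM, 0.0762% in the UUO interaction, 1.6% in the anti-GBM interaction and 0.991% in WT UUO against WT anti-GBM. A fit of only the groups compared gave 15.6% in WT anti-GBM, 0% in KO anti-GBM, 1.03% in KO against WT in normal kidneys, 0.167% in the anti-GBM interaction and 0% in WT UUO against WT anti-GBM. The 9 libraries of higher breadth gave 21.3% in WT UUO, 11.8% in WT anti-GBM, 2.4% in KO UUO, 2.25% in KO anti-GBM, 1.65% in KO against WT in normal kidneys, 1.65% in KO against WT in UUO, 14.97% in KO against WT in anti-GBM, 7.93% in KO against WT averaged over the states, 3.89% in the UUO interaction, 7.93% in the anti-GBM interaction, 3.37% in WT UUO against WT anti-GBM and 5.91% in KO UUO against KO anti-GBM. Leaving out each library in turn gave 3.51 to 15.4% in WT UUO (highest without KO UUO 1), 0 to 2.34% in WT anti-GBM (highest without KO UUO 1 or KO UUO 2), 0.137 to 9.22% in KO UUO (highest without KO UUO 2), 0.0686 to 2.96% in KO anti-GBM (highest without KO anti-GBM 2), 0 to 0.354% in KO against WT in normal kidneys (highest without KO UUO 1 or KO UUO 2), 0.0701 to 1.72% in KO against WT in UUO (highest without KO UUO 2), 0.0691 to 2.83% in KO against WT in anti-GBM (highest without KO UUO 1 or KO UUO 2), 0.137 to 3.44% in KO against WT averaged over the states (highest without KO UUO 2), 0 to 1.84% in the UUO interaction (highest without KO UUO 1), 0.0686 to 0.992% in the anti-GBM interaction (highest without KO UUO 1 or KO anti-GBM 2), 0.14 to 3.13% in WT UUO against WT anti-GBM (highest without WT UUO 2) and 0.964 to 7.15% in KO UUO against KO anti-GBM (highest without KO UUO 2), where a group left with 1 library is assumed to vary like the others. The cause of these differences was not tested. The average over the states was not fitted with only the groups compared, since it uses all groups. The share of reads on the cDNA-matched transcripts ranged from 14.0% to 17.3% once ncRNA_aligned_3554 and ncRNA_aligned_7824 were taken out of the totals. No paired analysis was possible because the labels give the libraries codes and no replicate numbers shared between groups. With 2 libraries a group, and reads on a small part of some transcripts, a transcript that did not pass cannot be called unchanged, and counts under 3 reads in a library limit folds of the sparse ones.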
